A study of Homo sapiens with 6 samples.

Results

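PHGDH, PSAT1, PSPH, SHMT1, SHMT2, MTHFD1, MTHFD2, MTHFD1L, ALDH1L2 and ASNS encode enzymes that make serine, glycine, folate-bound one-carbon units and asparagine. They were taken by gene name from a table of 31368 genes, which held all 10. The table covers CAL27, an established human cell line labelled as oral squamous cell carcinoma, in 2 groups of 3 poly-A-selected RNA libraries: untreated cells, and the same line after 24 h with 10 mM lactate. The labels name no genotype change and do not say whether lactate was given as acid or salt, nor the pH of the medium. They also do not say whether replicates were separate cultures, so p-values reflect only how far these samples differ among themselves, possibly for technical reasons. Lysine lactylation and open chromatin were profiled in the same project and are not analysed here.

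Cells make serine from a glycolytic intermediate in consecutive steps: PHGDH oxidises phosphoglycerate, PSAT1 moves an amino group onto it from glutamate, and PSPH removes the phosphate. The serine hydroxymethyltransferases then split serine into glycine and a carbon unit carried on tetrahydrofolate, SHMT1 in the cytosol and SHMT2 in mitochondria. In mitochondria MTHFD2 oxidises that unit, MTHFD1L releases it as formate, and ALDH1L2 instead oxidises it to CO2 while making NADPH. In the cytosol the single protein MTHFD1 carries out the matching reactions, mostly to feed purine and thymidylate synthesis. ASNS makes asparagine from aspartate with nitrogen from glutamine. Many genes of these pathways are known targets of ATF4, a transcription factor made when amino acids run short or cells are under stress, and proliferating tumour cells often express them highly.

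After lactate the transcripts of 6 of the 9 enzyme genes that could be tested fell. These lay in the serine synthesis and the mitochondrial folate arm, apart from SHMT1, which encodes a cytosolic enzyme. Of the 10, PSPH had the largest decrease in the deposited values relative to its own untreated mean. It went to 32.9 ± 0.489 FPKM from 46.7 ± 0.146 (fragments scaled to gene length and library size, mean ± SD, n = 3). The means of PSAT1, SHMT1, SHMT2, MTHFD2 and MTHFD1L fell by 18.4% to 20.1%. PHGDH and MTHFD1 did not pass the test. ALDH1L2, at a low level, rose by 23.5%, a call that was lost without lactate replicate 2 or 3. ASNS, at about 0.575 FPKM in both groups, was under the level needed for testing. The test was limma on log2(FPKM + 1) over 11792 genes that reached 1 FPKM in 3 or more libraries, with a Benjamini-Hochberg adjusted p under 0.05 as threshold and fold changes given as lactate over untreated. Of all genes tested, 30.9% passed as lower and 27.7% as higher, against 6 and 1 of the 9 enzyme genes, and the median log2 fold change was -0.283 over the 9 and -0.016 over all. In each of the 9 the lactate libraries lay entirely to one side of the untreated libraries, which was also so for 65.5% of all genes tested. In bulk RNA, fewer cells that express a gene and less RNA per cell cannot be told apart.

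**Figure D1:**
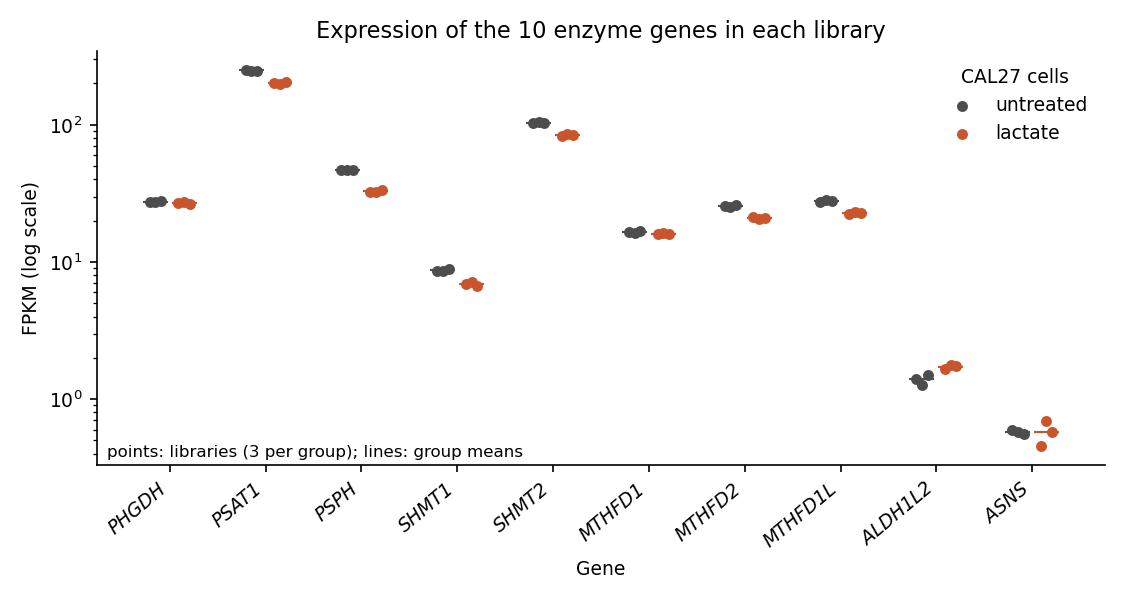
FPKM on a log scale for the 10 enzyme genes in each of 3 untreated and 3 lactate libraries of CAL27 cells, with a line at each group mean. PSAT1 lies highest and ASNS lowest, and the lactate points of PSPH lie at 32.6 to 33.4 FPKM below untreated points at 46.6 to 46.8.

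Because ATF4 acts through a composite C/EBP-ATF element, promoters were searched for its core, TGATGNAAN, where N is any base, on both strands. The palindromic cyclic AMP response element TGACGTCA and the palindromic E-box CACGTG were searched too. None of the 3 motifs shares bases with another in these matches. RefSeq promoter windows of GRCh38.p14, from 250 bases before to 50 after a start, were held for 7 of the 10 genes (11 windows; PHGDH, PSAT1, SHMT1, MTHFD1, MTHFD2, MTHFD1L and ASNS). The core was found in MTHFD1L and ASNS, and in 3.61% of all 35116 windows. CACGTG was found in MTHFD1L and MTHFD1 (7.26% of all windows), and TGACGTCA in none of the 7 genes (1.85% of all windows). The 250 bases before the start are printed below, 5′ to 3′ on the gene's strand, for a gene that fell and holds both elements (MTHFD1L, chr6:150866236-150866485, plus strand), one that holds the core but stood at a low level (ASNS, chr7:97872409-97872658, minus strand), one with the E-box alone that did not pass (MTHFD1, chr14:64388103-64388352, plus strand) and one that fell and holds none of the 3 (PSAT1, chr9:78296875-78297124, plus strand). Capitals mark the matches.
MTHFD1L: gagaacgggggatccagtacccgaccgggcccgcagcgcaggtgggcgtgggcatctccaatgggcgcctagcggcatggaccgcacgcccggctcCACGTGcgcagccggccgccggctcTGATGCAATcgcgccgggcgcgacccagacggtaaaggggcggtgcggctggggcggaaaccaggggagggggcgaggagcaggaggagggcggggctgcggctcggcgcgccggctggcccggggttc
ASNS: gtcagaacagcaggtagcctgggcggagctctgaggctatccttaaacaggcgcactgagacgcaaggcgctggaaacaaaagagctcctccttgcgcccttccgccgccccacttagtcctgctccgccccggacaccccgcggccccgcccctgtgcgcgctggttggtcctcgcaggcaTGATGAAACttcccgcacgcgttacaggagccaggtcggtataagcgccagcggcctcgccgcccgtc
MTHFD1: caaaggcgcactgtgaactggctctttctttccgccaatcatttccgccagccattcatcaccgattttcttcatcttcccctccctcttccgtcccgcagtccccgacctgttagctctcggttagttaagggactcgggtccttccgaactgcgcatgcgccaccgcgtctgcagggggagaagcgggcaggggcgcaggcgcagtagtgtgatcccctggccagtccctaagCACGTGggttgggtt
PSAT1: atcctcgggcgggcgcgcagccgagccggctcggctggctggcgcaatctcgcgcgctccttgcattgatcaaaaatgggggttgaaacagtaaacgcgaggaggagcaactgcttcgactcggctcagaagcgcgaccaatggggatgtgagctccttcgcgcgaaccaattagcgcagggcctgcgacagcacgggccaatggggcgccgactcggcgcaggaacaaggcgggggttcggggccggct

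In MTHFD1L the E-box ran from -154 to -149 and the element TGATGCAAT from -129 to -121, counted in bases from this start with -1 just before it. MTHFD1L has 4 windows in the table, and the same bases lie in 3 of them, each at a different distance from its start. In ASNS the element TGATGAAAC ran from -68 to -60, and in MTHFD1 the E-box from -15 to -10. A match describes letters only. These libraries do not measure binding, and genes with and without a match were among those that fell.

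The denominators behind the FPKM values were 25163374 to 33297625 reads in untreated and 30957477 to 40220226 in lactate libraries. Log2 values of libraries correlated across genes at a Pearson r of 0.996 to 0.997 within groups and 0.989 to 0.991 between groups. All 9 squamous epithelial markers examined averaged at least 1 FPKM, with sums of 1051 to 1068 FPKM in untreated and 1059 to 1081 in lactate libraries. Within these sums SFN was largest (602.3 FPKM untreated, 598.0 lactate), and single markers moved both ways. Means fell for KRT5 (155.1 to 118.4 FPKM), KRT6A (11.56 to 9.573) and SFN. They rose for KRT17 (108.2 to 135.9 FPKM), TP63 (26.31 to 31.96), CDH1 (37.1 to 45.45), EPCAM, KRT14 and DSG3. Of 5 fibroblast markers measured (COL1A1, COL1A2, COL3A1, LUM and PDGFRB), 0 averaged 1 FPKM. Their sums of 1.04 to 1.19 FPKM in untreated and 1.59 to 1.79 in lactate libraries were small beside the enzyme genes other than ALDH1L2 and ASNS. Of 4 leukocyte markers 0 averaged 1 FPKM (sums 0.733 to 0.982 untreated, 0.369 to 0.669 lactate), and of 3 endothelial markers only CDH5 did, at 1.22 FPKM in untreated and 0.992 in lactate cells (sums 1.13 to 1.41 and 1.03 to 1.13). No measured marker was at 0 in every library, and the part of these cell types in the results was not tested. The labels give no batch or date.

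The serine synthesis genes did not change alike. PHGDH (ENSG00000092621, chromosome 1, 119648411 to 119744226, plus strand, GRCh38), which encodes the first enzyme of the pathway, stood at 27.5, 27.5 and 27.6 FPKM in untreated replicates 1 to 3 and at 27.0, 27.5 and 26.3 in lactate replicates 1 to 3. Every lactate value was below every untreated value, by a margin small beside the spread of the lactate libraries. The log2 fold change was -0.033 (SE 0.024, 95% interval -0.089 to 0.022, limma adjusted p = 0.259). Its sign depended on the scaling between libraries: it was 0.022 after quantile normalization and 0.034 with libraries scaled to their read totals.

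PSAT1 (ENSG00000135069, chromosome 9, 78297143 to 78330093, plus strand), the aminotransferase of the pathway and the most abundant of the 10 transcripts, read 252.5, 248.6 and 248.2 FPKM in untreated replicates 1 to 3. It read 202.5, 198.7 and 203.6 FPKM in lactate replicates 1 to 3, so the groups were far apart against a spread of a few FPKM within each. The mean fell by 19.3%, from 249.8 ± 2.40 to 201.6 ± 2.58 FPKM (log2 fold change -0.31, SE 0.017, limma adjusted p = 1.7e-05). After quantile normalization the log2 fold change was -0.13, still past the threshold (adjusted p = 0.00103).

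PSPH (ENSG00000146733, chromosome 7, 56011051 to 56051604, minus strand), the phosphatase of the last step, gave 46.6, 46.6 and 46.8 FPKM in untreated cells and 32.6, 32.6 and 33.4 in lactate. The 3 untreated libraries were nearly identical and the lactate libraries lay well below them. PSPH fell by 29.6% (log2 fold change -0.49, SE 0.020, 95% interval -0.54 to -0.45, limma adjusted p = 9.81e-06) and ranked 173 from the lowest fold change of the 11792 genes. It was also the one member past the threshold when the change had to exceed 1.2-fold, a requirement met by 242 genes (2.05%) in the lower direction.

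Both serine hydroxymethyltransferase genes fell. SHMT1 (ENSG00000176974, chromosome 17, 18327860 to 18363563, minus strand), the cytosolic form, was at 8.60, 8.62 and 8.83 FPKM in untreated replicates 1 to 3 and 6.96, 7.20 and 6.66 in lactate replicates 1 to 3. SHMT2 (ENSG00000182199, chromosome 12, 57229327 to 57234935, plus strand), the mitochondrial form, was at 103.1, 104.2 and 103.2 FPKM untreated and 83.2, 85.1 and 84.2 in lactate. For neither gene did the groups overlap. The mean fell by 20.1% for SHMT1 (log2 fold change -0.29, SE 0.034, limma adjusted p = 0.000335) and by 18.7% for SHMT2 (log2 fold change -0.30, SE 0.017, limma adjusted p = 2.05e-05). After quantile normalization SHMT2 was at -0.16 (adjusted p = 0.000419).

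Within a library SHMT2 exceeded SHMT1 11.9 ± 0.205-fold in FPKM in untreated and 12.1 ± 0.437-fold in lactate cells. Per kilobase of principal transcript the untreated levels were 187.3 and 25.7, a smaller gap, so the size of this ratio depends on the length used. The ratios ran from 11.7 to 12.1 untreated and from 11.8 to 12.6 in lactate and overlapped. The log2 ratio differed by 0.025 (exact two-sided permutation p = 0.7, adjusted over 8 gene pairs 0.8). With 3 libraries a group this test cannot go below 0.1.

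The genes for the mitochondrial enzymes that carry serine's carbon to formate also fell. MTHFD1, for a cytosolic enzyme, did not pass, while SHMT1, also for a cytosolic enzyme, fell as given above. MTHFD2 (ENSG00000065911, chromosome 2, 74198562 to 74217565, plus strand), the mitochondrial dehydrogenase and cyclohydrolase, stood at 25.6, 25.4 and 25.9 FPKM in untreated replicates 1 to 3 and at 21.3, 20.5 and 21.0 in lactate replicates 1 to 3. All 3 lactate libraries were lower than all untreated ones, and the mean fell by 18.4% (log2 fold change -0.28, SE 0.023, limma adjusted p = 7.31e-05). When the dependence of each library on GC and gene length was taken out, the log2 fold change was -0.45 (adjusted p = 8.88e-06).

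MTHFD1L (ENSG00000120254, chromosome 6, 150865549 to 151101887, plus strand), the mitochondrial formate-tetrahydrofolate ligase, read 27.5, 28.2 and 28.0 FPKM untreated and 22.4, 23.1 and 22.7 in lactate. The groups were apart by several times the spread within either, and the mean fell by 18.5% (log2 fold change -0.28, SE 0.023, limma adjusted p = 6.27e-05). MTHFD1L and SHMT2 lay close to each other over the 6 libraries, as did other genes with a like fold change, as given below.

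MTHFD1 (ENSG00000100714, chromosome 14, 64388031 to 64463457, plus strand), the cytosolic trifunctional enzyme, gave 16.6, 16.3 and 16.7 FPKM in untreated and 16.12, 16.15 and 15.95 in lactate replicates 1 to 3. The highest lactate value lay just under the lowest untreated one. The log2 fold change was -0.039 (SE 0.024, 95% interval -0.094 to 0.016, limma adjusted p = 0.19), an interval that leaves out the -0.28 of MTHFD2 and MTHFD1L. The value was 0.015 after quantile normalization and 0.027 with read totals. It was -0.070 and past the threshold once the GC and length trend was taken out (adjusted p = 0.0299), though not when the replicate number was added there as a block (adjusted p = 0.0558).

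The unequal change within the folate pathway also shows as a ratio inside each library, which a common factor per library cannot move. Quantile normalization and removal of the GC and length trend can move it. MTHFD2 over MTHFD1 was 1.54, 1.56 and 1.55 in untreated replicates 1 to 3 and 1.32, 1.27 and 1.31 in lactate replicates 1 to 3, a log2 difference of -0.25. MTHFD1L over MTHFD1 went from 1.69 ± 0.037 to 1.41 ± 0.021, also a log2 difference of -0.25. The 2 pairs were not alike once the GC and length trend was removed. The log2 fold change was then -0.451 for MTHFD2, -0.199 for MTHFD1L and -0.07 for MTHFD1. In the serine arm PSPH over PHGDH was 1.694, 1.692 and 1.695 untreated and 1.205, 1.189 and 1.274 in lactate replicates 1 to 3 (log2 difference -0.47). PSAT1 over PHGDH went from 9.06 ± 0.107 to 7.498 ± 0.260 (log2 difference -0.27). In all 4 pairs the groups did not overlap, with the smallest p the exact two-sided permutation test allows (p = 0.1 each, adjusted over 8 pairs 0.16), so none passed 0.05.

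**Figure D2:**
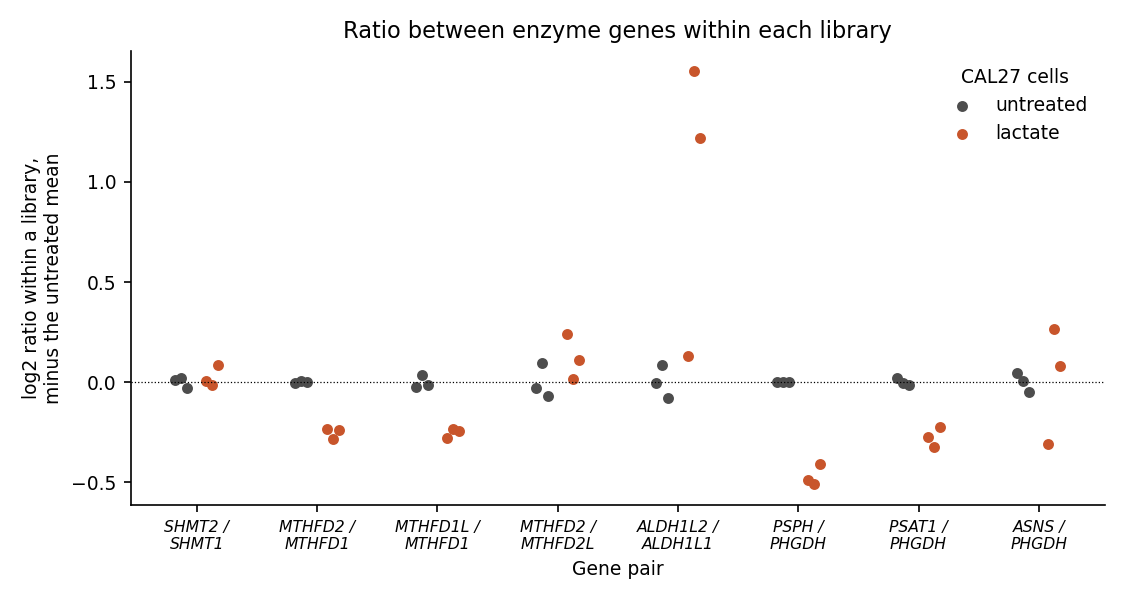
Log2 ratio of FPKM between the 2 genes of each of 8 pairs within each library, minus the mean of the untreated libraries, for 3 untreated and 3 lactate libraries. The lactate points of MTHFD2 and MTHFD1L over MTHFD1 and of PSPH and PSAT1 over PHGDH lie below all untreated points, while those of SHMT2 over SHMT1 overlap them.

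ALDH1L2 (ENSG00000136010, chromosome 12, 105019784 to 105084577, minus strand), the mitochondrial formyl-tetrahydrofolate dehydrogenase, was the member that rose. It stood at 1.41, 1.26 and 1.51 FPKM in untreated replicates 1 to 3 and at 1.65, 1.78 and 1.74 in lactate replicates 1 to 3, from 302 to 663 reads a library. The lowest lactate value exceeded the highest untreated one, by less than the untreated libraries differed among themselves. The log2 fold change was 0.19 (SE 0.053, 95% interval 0.062 to 0.31, limma adjusted p = 0.0186), a scale on which the added 1 shrinks the change of so low a gene. It was 0.29 with 0.1 added in place of 1 and 0.30 by voom on whole reads. The call was lost without lactate replicate 2 (adjusted p = 0.058), without lactate replicate 3 (adjusted p = 0.0554) and with no filter on low values (adjusted p = 0.0581). Without the GC and length trend its log2 fold change was 0.036 (adjusted p = 0.594).

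Other forms of the folate enzymes were scarce. MTHFD2L, the paralog of MTHFD2 in mitochondria, averaged 0.732 FPKM in untreated and 0.549 in lactate cells, and ALDH1L1, the cytosolic form of ALDH1L2, 0.031 and 0.021. Both were under the level needed for testing. MTHFD2 over MTHFD2L was 35.1 ± 2.13 and 38.2 ± 3.01, with overlapping groups (exact two-sided permutation p = 0.2, adjusted 0.267). ALDH1L2 over ALDH1L1 was 45.7 ± 2.66 and 96.8 ± 42.7 (p = 0.1, adjusted 0.16, exact permutation), but ALDH1L1 was at 0.013 to 0.035 FPKM, so the ratio rests on very few reads.

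ASNS (ENSG00000070669, chromosome 7, 97852118 to 97872542, minus strand) read 0.592, 0.576 and 0.558 FPKM in untreated and 0.455, 0.689 and 0.579 in lactate replicates 1 to 3. The lactate libraries scattered on both sides of the untreated ones. The means were 0.576 ± 0.017 and 0.575 ± 0.117 FPKM, from 69 to 114 reads a library. Fitted with no filter on low values, the log2 fold change was -0.0036 (95% interval -0.17 to 0.16, limma adjusted p = 0.98), and by voom on whole reads, with no added constant, it was -0.014 (95% interval -0.35 to 0.32, adjusted p = 0.973). The second interval includes the -0.28 to -0.31 of PSAT1, SHMT1, SHMT2, MTHFD2 and MTHFD1L, so a fall of their size was not detectable at this depth.

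The level of ASNS is itself uncertain. In GENCODE 29 another gene on the same strand, AC079781.5, covers 1985 of the 4455 exonic bases of ASNS (44.6%) and 84.3% of its principal transcript, while AC079781.5 was given at most 0.041 FPKM. How reads in bases shared by genes were assigned is not given in the sources used here, and its part in the low value of ASNS was not tested. Other overlaps are on the opposite strand, where reads cannot be told apart if counting ignored strand. The widest is 1324 bases (27.2%) of MTHFD2 with SLC4A5, a gene at no more than 0.056 FPKM. Of 7 pseudogenes of the members in the table, PSAT1P3 reached 0.429 FPKM and MTHFD1P1 0.407, and SHMT1P1, MTHFD2P7, ASNSP3, ASNSP1 and PSAT1P1 no more than 0.054.

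**Figure D3:**
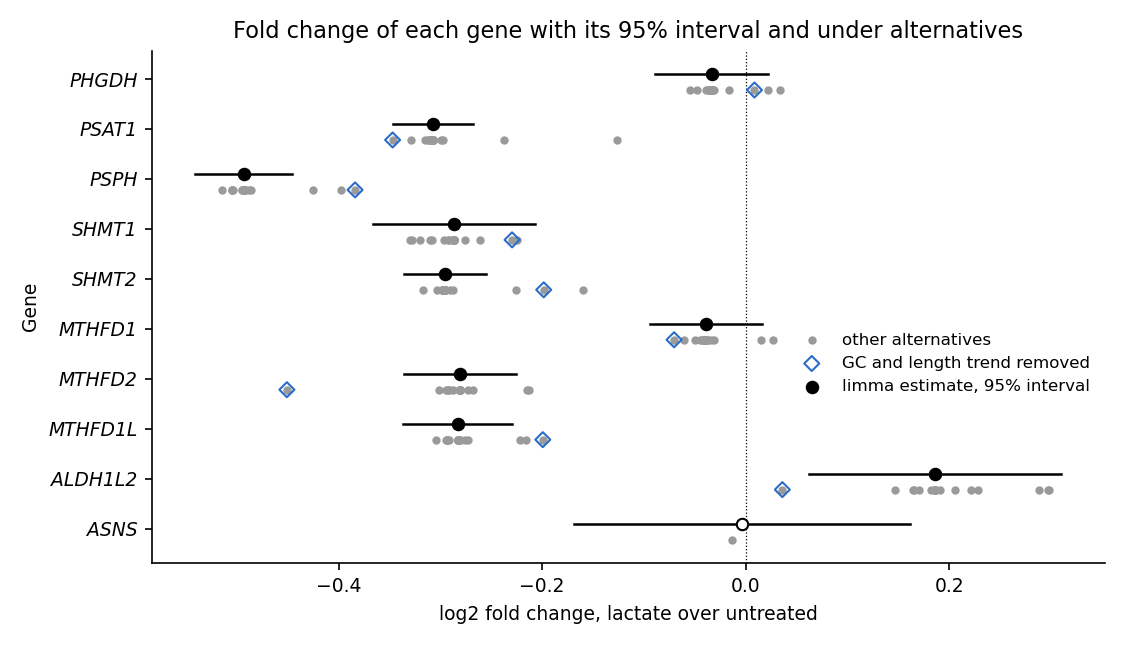
Log2 fold change of each enzyme gene, lactate over untreated, with limma's 95% interval (black), and under the alternatives tried (grey; blue diamonds: GC and length trend taken out). The open circle for ASNS is from the fit with no filter on low values. PSPH lies lowest of the black points at -0.49 and MTHFD2 lowest of the diamonds at -0.45, the intervals of PHGDH and MTHFD1 include 0, and ALDH1L2 at 0.19 moves to 0.036 when the GC and length trend is removed.

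Fold changes varied with GC content and length among tested protein-coding genes. Among these genes in 5 equal classes of GC content, the median log2 fold change went from 0.163 and 0.115 in the lowest classes to -0.119 and -0.093 in the highest. By gene length it went from -0.115 in the shortest class to 0.097 in the longest. PSAT1, MTHFD2 and ALDH1L2 lie in the second GC class, with a median of 0.115, and MTHFD2 and ALDH1L2 also in the longest class. SHMT1, SHMT2, PHGDH and MTHFD1L lie in the fourth GC class, with a median of -0.119. PSPH and PSAT1 lie in the shortest length class. With these trends removed, 7 members passed as lower (PSAT1, PSPH, SHMT1, SHMT2, MTHFD2, MTHFD1L and MTHFD1) and 0 as higher by limma. Of all 11588 genes in that fit 25.8% passed as lower and 23% as higher. PSPH was at -0.38 there, so that MTHFD2, at -0.45, fell most.

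By deposited FPKM the order in untreated cells was PSAT1, SHMT2, PSPH, MTHFD1L, PHGDH, MTHFD2, MTHFD1, SHMT1, ALDH1L2 and ASNS. MTHFD1L at 27.5 to 28.2 FPKM and PHGDH at 27.5 to 27.6 overlapped, and all other neighbours were apart. In lactate PHGDH stood at rank 4 and MTHFD1L at rank 5, with 26.3 to 27.5 FPKM against 22.4 to 23.1. This order depends on the length each count was divided by. Which exons the lengths recovered from the values include is not known. For PHGDH the length of 9187 bases was 3.55 times that of its principal transcript. It was 3.89 times for MTHFD1 and 2.57 times for MTHFD2, but only 1.01 times for PSAT1. Per kilobase of principal transcript, PHGDH rose to rank 3 at 97.7 to 98.2 and PSPH dropped to rank 6 at 59.1 to 59.4. MTHFD2 at 65.1 to 66.5 and MTHFD1 at 63.4 to 65.2 then overlapped. The fold changes do not depend on this length, apart from the effect of the added 1, except where the GC and length trend was removed. That fit and the length classes used the recovered length, which for MTHFD2 was 11443 bases against 4870 exonic bases in GENCODE 29.

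**Figure D4:**
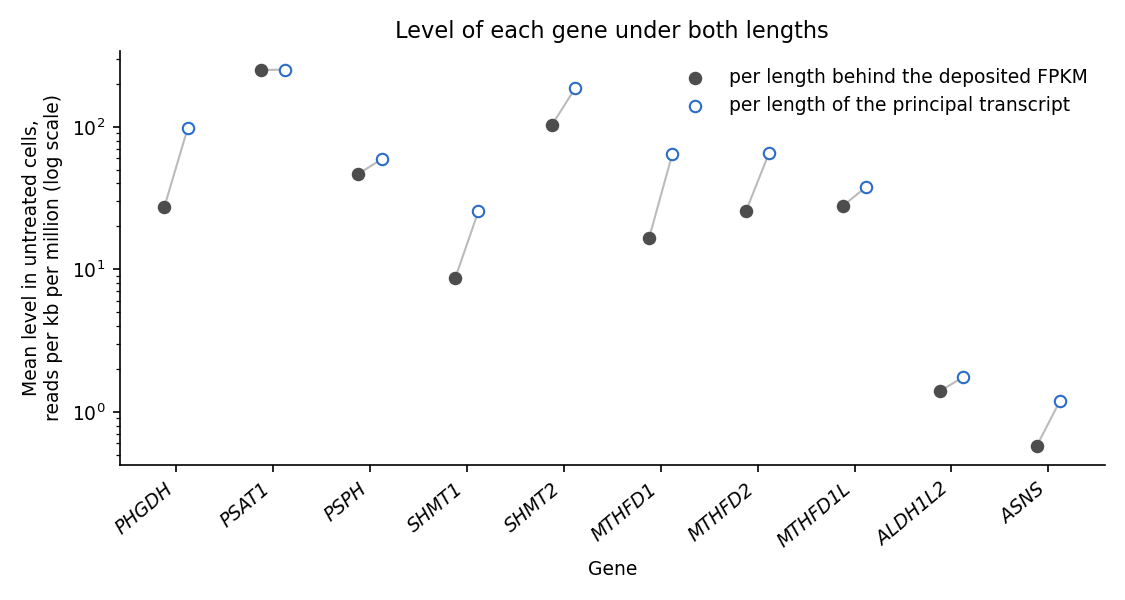
Mean level of each enzyme gene in 3 untreated libraries, as reads scaled to length and library size on a log scale, with the length behind the deposited FPKM (filled) and with the length of the principal transcript (open). MTHFD1, PHGDH and SHMT1 move up most, by 3.89, 3.55 and 2.96 times, while PSAT1 stays first at about 250 under both lengths.

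The genes whose values over the 6 libraries lay closest to each member were found by Euclidean distance between log2(FPKM + 1) values, each gene centred on its own mean, among 6305 genes with a symbol and at least 5 FPKM on average. MTHFD1L lay closest to CST6 (distance 0.013), TAGLN2 and FTSJ1, with SHMT2 at rank 8 (0.023). SHMT2 lay closest to COQ9 (0.019), RPL10P16 and TAGLN2, with MTHFD1L at rank 6. PSAT1 lay closest to TIMM50 (0.025), RBM4B and PSMB5, with MTHFD2 as its nearest member at rank 58. PSPH lay closest to TIMM44 (0.035), EIF6 and SERPINH1, and its nearest member, PSAT1, was far off at rank 462 (0.23). SHMT1 lay closest to C19orf53 (0.037), FKBP1C and ANAPC5, and MTHFD2 to RTF2 (0.025), RPS4X and DCTD. PHGDH lay closest to PFKP (0.020), DCAF7 and VAV2, and MTHFD1 to TUBG1 (0.017), GLUD1 and C1D. For ALDH1L2, among 6306 genes, they were HINT3 (0.050), WDR3 and CCDC25. Distances describe these 6 libraries only and include the difference between groups, so genes with a like fold change lie close. CST6, TAGLN2 and FTSJ1, the nearest to MTHFD1L, had log2 fold changes of -0.289, -0.285 and -0.283.

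Around the members, 20 other folate genes were examined, of which 12 could be tested. Of these, 6 passed as lower, 1 as higher and 5 did not pass, with a median log2 fold change of -0.097. Among all genes tested, 30.9% passed as lower and 27.7% as higher. The 5 with the smallest p all fell. ATIC, which encodes the last enzyme of purine ring synthesis, went from 60.9 ± 0.948 to 50.1 ± 0.630 FPKM (log2 fold change -0.28, limma adjusted p = 4.92e-05). GART, an earlier folate-using enzyme of the same route, was at -0.22 and TYMS, thymidylate synthase, at -0.30. The reduced folate carrier gene SLC19A1 was at -0.23 and FPGS, which adds the glutamate tail that keeps folate inside cells, at -0.20. The 1 that rose was GGH, which encodes the hydrolase that removes that tail, from 7.07 to 7.96 FPKM (log2 fold change 0.15, limma adjusted p = 0.0105). GGH was named after its values were seen.

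Of the glycine cleavage system, which breaks down glycine in mitochondria, the 3 subunit genes of its own were under the level for testing. GLDC averaged 0.123 FPKM in untreated and 0.093 in lactate cells, AMT 0.042 and 0.024, and GCSH 0.861 and 0.832. DLD, a subunit shared with pyruvate dehydrogenase and other complexes, went from 16.2 ± 0.494 to 21.6 ± 0.496 FPKM and rose (log2 fold change 0.39, limma adjusted p = 5.59e-05). The lipoylation genes LIAS (-0.092), LIPT2 (-0.21) and LIPT1 (-0.036) did not pass. LIAS did pass as lower after quantile normalization (-0.127, adjusted p = 0.0216), after median centring (-0.113, adjusted p = 0.032) and without the GC and length trend (-0.275, adjusted p = 0.000488). The median of the 4 tested was -0.064.

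Methionine cycle, methylation and transsulfuration genes went both ways: of 13 tested of 17 listed, 7 passed as lower and 4 as higher (median -0.137). The shares over all genes tested were 30.9% lower and 27.7% higher. ADI1, a dioxygenase of methionine salvage, fell from 19.98 ± 0.118 to 13.5 ± 0.209 FPKM (log2 fold change -0.53, limma adjusted p = 1.2e-05). AHCY, which hydrolyses S-adenosylhomocysteine, was at -0.33. MAT2A, which makes S-adenosylmethionine, was at -0.29, and CBS, which joins serine to homocysteine, at -0.22. AHCYL1, an AHCY-related regulator of calcium release, rose (0.27). All 5 passed the test.

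Other serine and glycine genes gave 6 lower, 2 higher and 3 not past the threshold of 11 tested (19 listed, median -0.082). Beside this count and the next stand 30.9% lower and 27.7% higher over all genes tested. SLC25A38, a mitochondrial glycine carrier, fell from 11.5 ± 0.331 to 7.96 ± 0.178 FPKM (log2 fold change -0.48, limma adjusted p = 3.29e-05). The glycine transporter gene SLC6A9 was at -0.50, the mitochondrial sideroflexin gene SFXN2 at -0.41 and GRHPR, a glyoxylate and hydroxypyruvate reductase, at -0.25. GAMT, the methyltransferase of creatine synthesis, rose (0.32). Next to ASNS, genes for asparagine, aspartate, glutamine, glutamate and proline gave 10 lower, 1 higher and 5 not past the threshold of 16 tested (22 listed; median -0.133). GPT2, the mitochondrial alanine aminotransferase, fell from 17.99 ± 0.379 to 13.8 ± 0.134 FPKM (log2 fold change -0.36, limma adjusted p = 4e-05). ALDH18A1 of proline synthesis and GOT1, the cytosolic aspartate aminotransferase, were each at -0.20 (GOT1 -0.058 and ALDH18A1 -0.078 after quantile normalization, and -0.053 and -0.119 without the GC and length trend) and OAT, ornithine aminotransferase, at -0.16. OAT did not pass after quantile normalization (-0.013, adjusted p = 0.574).

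Of 28 other genes known to respond to ATF4, 26 could be tested, and 20 passed as lower, 3 as higher and 3 not at all. Of all genes tested 30.9% passed as lower and 27.7% as higher. The median log2 fold change was -0.282 for these 26 and -0.283 for the 9 enzyme genes. Both sets were chosen with earlier results of these data known, and a link to ATF4 was not tested. The 5 with the smallest p were SLC1A5, a glutamine transporter (log2 fold change -0.45), ATF5, a related transcription factor (-0.61), SLC3A2, the shared heavy chain of amino acid exchangers (-0.38), SESN2, a leucine-sensing stress protein (-0.56), and STC2, a secreted glycoprotein (-0.38). All 5 fell. The 3 that rose, named after their values were seen, were NARS1, the asparaginyl-tRNA synthetase (0.15), the tRNA exporter gene XPOT (0.11) and SLC38A2, a neutral amino acid transporter (0.078).

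ATF4 itself read 201.3, 198.8 and 200.6 FPKM in untreated and 130.5, 134.9 and 134.9 in lactate replicates 1 to 3, with a wide gap between the groups (log2 fold change -0.58, SE 0.019, limma adjusted p = 5.69e-06). ATF4 protein, which is set largely by translation, was not measured. Of 12 regulator genes tested, 4 passed as lower, 5 as higher and 3 not at all (median 0.016), against 30.9% lower and 27.7% higher over all genes. KEAP1, whose product restrains the antioxidant factor NFE2L2, was at -0.35 and NFE2L2 at 0.29. The kinases that phosphorylate eIF2 and so favour ATF4 translation rose: EIF2AK2 (0.35), EIF2AK1 (0.22) and, named after their values were seen, EIF2AK3 (0.26) and EIF2AK4 (0.24). EIF2AK3 reached the level for testing only through the lactate libraries.

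**Figure D5:**
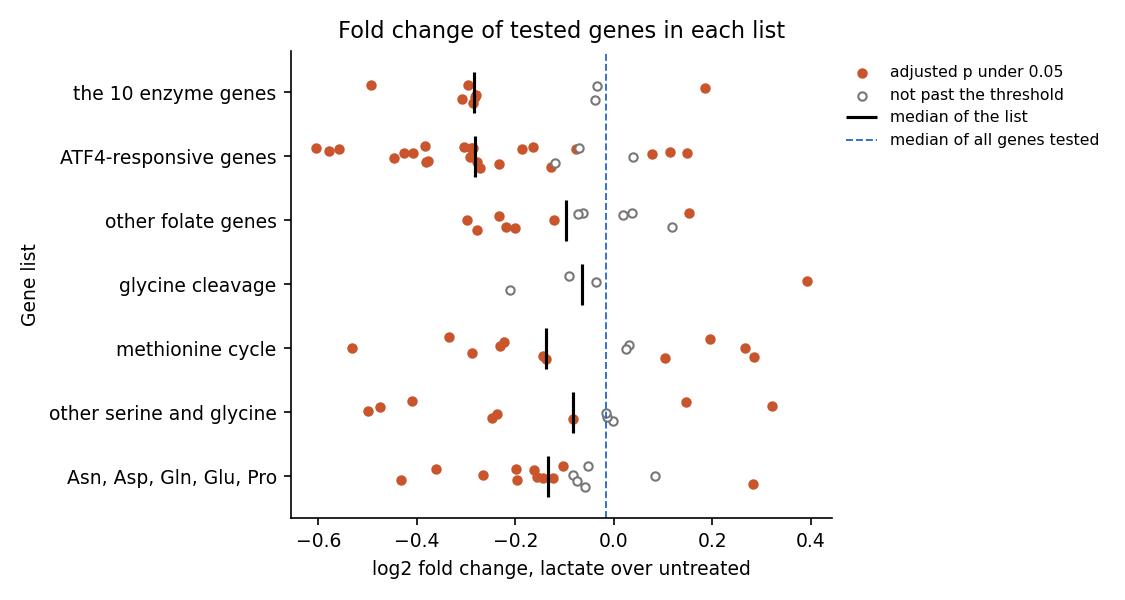
Log2 fold change, lactate over untreated, of each tested gene in 7 gene lists, with filled points past the limma threshold, a black bar at the median of each list and a dashed line at the median of all genes tested (-0.016). The enzyme genes and the ATF4-responsive genes have medians of -0.283 and -0.282, and the other lists lie between -0.137 and -0.064. All lists were chosen with earlier results of these data known.

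The scaling between libraries changed the members' sizes but not how many passed. After quantile normalization, after median centring and with read totals, 6 members were lower and 1 higher in each case, and the members' median was -0.16, -0.304 and -0.216. Of all genes 27.3%, 34.4% and 21.8% passed as lower and 28.1%, 24.9% and 35.4% as higher. Over all genes 3649 were lower and 3265 higher as deposited, against 2577 lower and 4178 higher with read totals. The medians of the lists outside the members kept their sign under these 3 scalings, apart from the regulators (0.016 as deposited, -0.015 after quantile normalization and -0.006 after median centring). Of the asparagine, aspartate, glutamine, glutamate and proline genes 6, 13 and 9 passed as lower under these scalings, against 10 as deposited, and of the ATF4-responsive genes 17, 21 and 18, against 20. Several named genes outside the members passed with smaller changes. After quantile normalization ATIC was at -0.153, GART at -0.123, MAT2A at -0.161, AHCY at -0.206, SLC1A5 at -0.271 and SLC3A2 at -0.208. Without the GC and length trend TYMS was at -0.18, FPGS at -0.119, AHCY at -0.222, DLD at 0.249 and EIF2AK2 at 0.157. With read totals FPGS was at -0.133, GOT1 at -0.128 and ALDH18A1 at -0.129. Of the 5 or fewer genes named per list by smallest p, the sign turned for PHGDH, MTHFD1 and LIPT1.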

How the data were processed

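Poly-A RNA of CAL27 cells was sequenced in 6 libraries, grouped by the treatment in the labels. Values were deposited as FPKM, in which the authors divided fragments by gene length and library size. The submitters' processing notes list featureCounts 1.5.0-p3, StringTie 1.3.3b, HISAT2 2.0.5 and fastp, and the build hg38. For the role of each tool, for strand use and for the annotation's release nothing is stated (not given in the sources used here). GENCODE 29 supplied coordinates, GC content, principal transcripts and overlaps.

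Denominators were recovered from the FPKM values, and for 31367 genes a length was found that gave whole reads in every library (within 0.003 reads). Of these lengths 16697 matched GENCODE 29. The others came from a search for a length that gave whole reads, which need not be the only such length. Sums of recovered reads were 103% to 104% of denominators in untreated and 98.0% to 99.1% in lactate libraries, so the values appear already scaled between libraries.

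Limma 3.58.1 (R 4.3.3; trended, robust variance; group only) was fitted to log2(FPKM + 1) for all 11792 genes that reached 1 FPKM in 3 or more libraries, with Benjamini-Hochberg adjustment over all of them. The added 1 understates changes of low genes. SE is limma's and ± is the SD over 3 libraries. Ratios within libraries used exact two-sided permutation tests. Python 3.11.15 (numpy 2.4.6, pandas 2.3.3, scipy 1.17.1, matplotlib 3.10.9) did the rest. The fit was also run on simulated reads with no GC or length trend and no scaling shift between groups. That run therefore does not bear on how such features affect the calls.

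All members are named, and from each other list up to 5 genes with the smallest p, plus those said to be named after their values were seen. A gene named by this rule is left out of the text. The members and lists were chosen with earlier results of these data known. Alternatives covered scaling, filter, pseudocount, variance model, genes tested, threshold, replicate block, GC and length trends (natural splines, 4 degrees of freedom), voom on recovered reads and each library left out. Voom with no filter and levels per principal transcript were added after seeing the data.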

Additional observations from a re-analysis of the deposited data

How the results depend on the processing

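The 6 falls of PSAT1, PSPH, SHMT1, SHMT2, MTHFD2 and MTHFD1L kept their direction and passed under every alternative except a minimum fold of 1.2, where 1 (PSPH) passed. The 1 rise, ALDH1L2, became 0 with no filter on low values, with a filter at 5 FPKM (which leaves it out), at an adjusted p under 0.01, at a minimum fold of 1.2, and with the GC and length trend removed, alone or with the replicate block. With each replicate left out in turn the count of falls was 6 and that of rises 0 to 1. PHGDH changed sign to 0.0224 after quantile normalization, 0.0342 with read totals and 0.0087 with the GC and length trend removed, with or without the replicate block. MTHFD1 changed sign to 0.0152 after quantile normalization and 0.0271 with read totals. With 1 added to both values, SHMT2 over SHMT1 was at -0.0086 and MTHFD2 over MTHFD2L at -0.1197 on the log2 scale, and ALDH1L2 over ALDH1L1 at 0.20. Leave-one-out ranges were -0.004 to 0.0444 for SHMT2 over SHMT1 (negative without lactate replicate 3) and -0.1152 to 0.1727 for ASNS over PHGDH (negative without untreated replicate 3 or lactate replicate 2 or 3). The cause of these changes was not tested. Over all genes, a minimum fold of 1.2 left 242 lower and 187 higher, no filter 3076 and 2905, a filter at 5 FPKM 2955 and 1786, and voom on recovered reads 3873 and 3518.

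Same-numbered libraries deviated together weakly at most (r = 0.0526, 0.0668 and -0.0038 for replicates 1 to 3). For replicates 1 and 2 the same-numbered library was the closest, while lactate replicate 3 was closest to untreated replicate 2, at 0.0073. With values this small the numbers were not taken as pairs. With the replicate block 6 members were lower and 1 higher, and 3782 of all genes were lower and 3257 higher. Counting error alone was 5.75% of the value for ALDH1L2 and 12.0% for ASNS in the library with fewest reads, and 0.851% to 2.53% for the other 8.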
